A study of Mus musculus with 12 samples.

Results

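Control cultures of a Foxp1 study in 3T3-L1 fat cells were set against each other: 3 libraries from cells carrying an empty vector and 3 from cells carrying a scrambled short hairpin RNA. These 6 libraries were chosen by their labels and are 6 of the 12 in the series. The other 6 came from cells overexpressing Foxp1 (3 libraries) and from cells with a hairpin RNA against Foxp1 (3 libraries). Their levels are given for the Foxp1 check, in figures and for a closing comparison. They also entered the filter on low values and the estimate of spread that all 4 groups share in the test. 3T3-L1 cells, derived from Swiss mouse embryos, are fibroblasts that turn into fat-storing cells under hormones. The same hormone mix was given to every group: insulin at 5 µg/ml, the glucocorticoid dexamethasone at 1 µM, the PPARgamma agonist troglitazone at 10 µM and the phosphodiesterase inhibitor isobutylmethylxanthine at 0.5 mM. On day 4 the cells were left with insulin alone, and on day 6 they went into growth medium. An empty vector carries no insert, and a scrambled hairpin is processed like any short hairpin RNA but has no intended target. The vectors, their promoters, the day of harvest and whether the empty vector and hairpin cultures were grown side by side are not given in the sources used here. Construct and experiment therefore cannot be told apart, and the values describe 2 sets of adipocyte cultures. What a replicate was is not stated either, so p-values measure only the spread between libraries within the 4 groups, which may be technical.

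Levels are RPKM, read counts divided by exon length and library depth, and can be compared between genes because they are per length. Of 28948 genes listed, 11245 had at least 1 RPKM in at least 3 of the 12 libraries and were tested with limma on log2(RPKM + 1), at a Benjamini-Hochberg adjusted p under 0.05 over all genes tested. Differences are scrambled hairpin minus empty vector on that scale unless a ratio of mean RPKM is given. A pair of levels gives the empty vector first and the scrambled hairpin second, each as mean ± SD over n = 3 libraries. The log2 scale with 1 added understates differences of low genes, and a gene that passed the filter through 1 group alone had to differ, so counts over a list cover only its tested members. The 6 control libraries held 35252018 to 38450005 reads in genes, so that a single read over 1 kilobase of exon stood for 0.0260 to 0.0284 RPKM. Libraries of a group correlated at 0.9983 or more across genes and those of different groups at 0.9832 to 0.9842.

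Foxp1, the forkhead transcription factor that the study altered, had 1.83, 1.76 and 1.82 RPKM in the empty vector libraries and 5.78, 7.16 and 6.75 in the overexpressing ones. It had 2.24, 2.20 and 2.11 RPKM in the scrambled hairpin libraries and 1.11, 1.14 and 1.07 in those with the hairpin against Foxp1. Every overexpression library lay above every empty vector library, and every library with the hairpin against Foxp1 lay below every scrambled hairpin library. Between the controls, Foxp1 was 1.21 times as high with the scrambled hairpin (log2 difference 0.18, SE 0.0580, limma adjusted p = 0.0133), but this call was lost with median-ratio scaling (adjusted p = 0.083) and with quantile normalization (adjusted p = 0.125). Foxk2, known as an activator of glycolytic genes, was higher with the scrambled hairpin, at 11.5 ± 0.362 and 18.4 ± 0.509 RPKM. Foxo1, a factor that insulin signalling holds in the cytoplasm, was higher too, at 10.8 ± 0.155 and 18.1 ± 0.195 RPKM. Of 8 forkhead genes tested, 6 were higher and 2 did not pass, beside 44.8% higher and 27.0% lower among all genes. Median-ratio scaling and quantile normalization each gave 4 forkhead genes higher and 1 lower, and scaling without mitochondrial transcripts 5 and 1.

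The labelled cell type was checked against marker genes. All 8 fat cell markers fixed for this check were well expressed in both groups. Among them were the lipid droplet protein Cidec at 2429.7 ± 66.1 and 2294 ± 42.4 RPKM and the master regulator Pparg at 123 ± 0.943 and 88.7 ± 2.51 RPKM. None of 6 endothelial markers reached the level for testing, and their summed level was 0.229 to 0.284 RPKM with the empty vector and 0.291 to 0.333 with the scrambled hairpin. Of 8 macrophage markers only Cd68 was tested, and it was higher with the scrambled hairpin (log2 difference 0.44). The pan-leukocyte gene Ptprc was listed at 0 in all 6 libraries, and the summed level of the 8 was 3.04 to 4.41 and 4.37 to 5.99 RPKM. Among 6 mesothelial and epithelial markers, Cdh1 was listed at 0 in all 6 libraries and Msln did not pass the test, while the keratins Krt8, Krt18 and Krt19 were higher. Their list summed to 2.71 to 3.15 and 9.20 to 10.5 RPKM. Bone and cartilage markers were near 0 apart from Runx2 at 0.888 ± 0.0496 and 2.18 ± 0.129 RPKM. Preadipocyte and fibroblast markers split, with 5 of 11 tested higher and 6 lower, and summed to 566 to 602 and 485 to 516 RPKM. The receptors Pdgfra and Pdgfrb were lower, and the surface proteins Thy1 and Ly6a and the inhibitor of differentiation Dlk1 higher. In bulk RNA, fewer cells of a kind and less RNA per cell cannot be told apart.

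Some biology helps to read the genes that differed. Fat cells take up glucose and fatty acids under insulin, store them as triglyceride, and secrete hormones such as adiponectin. When oxygen is scarce, prolyl hydroxylases of the Egln family no longer mark the hypoxia-inducible factors for destruction, and these factors switch on glucose transport, glycolysis and genes that reduce oxygen use. Serum response factor and the YAP coactivators respond to actin tension and drive actin, myosin and matrix genes, which preadipocytes shut down as they round up.

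Expression differed widely between the control groups. Of 11245 genes, 8070 passed the test (71.8%), 5037 higher with the scrambled hairpin (44.8%) and 3033 lower (27.0%). The counts of every gene list that follows are to be read beside these shares. Most differences were small, with a median size of 0.36 among genes that passed and a median of 0.09 over all genes tested. A ratio of at least 1.5 in mean RPKM was reached by 1676 genes that were higher (14.9%) and 1144 that were lower (10.2%), and a ratio of at least 2 by 677 (6.02%) and 483 (4.30%). The 3 values of each group did not overlap in 8877 genes (78.9%). The balance of small differences depended on the scaling: median-ratio scaling gave 4167 higher and 3784 lower, and quantile normalization 4044 and 3886. Mitochondrially encoded transcripts took 9.04% ± 0.387 of reads with the empty vector and 5.37% ± 0.497 with the scrambled hairpin (SD, n = 3 each), and scaling to all other reads gave 4465 higher and 3536 lower.

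**Figure D1:**
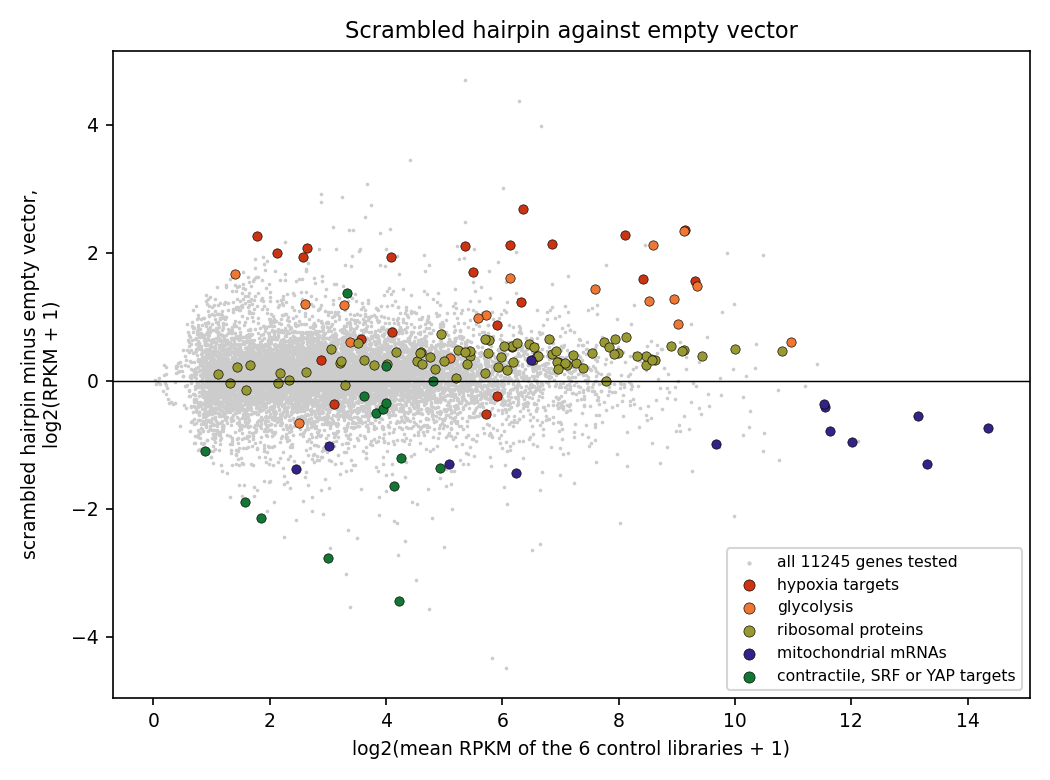
Difference between the control groups (y axis, log2(RPKM + 1), scrambled hairpin minus empty vector) against mean level over the 6 control libraries (x axis, log2(mean RPKM + 1)). Each point is a gene tested. Hypoxia targets and glycolytic genes lie mostly above 0, ribosomal protein genes slightly above, and contractile genes and mitochondrially encoded messenger RNAs mostly below.

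Hypoxia targets outside glycolysis stood higher in the scrambled hairpin cultures, several of them by more than 4-fold. Of 23 tested among 24 listed, Stc2 being too low, 20 were higher and 3 lower, with a median difference of 1.70, where all genes tested had 44.8% higher, 27.0% lower and a median of 0.09. The promoters of the most different members that hold the motif of the hypoxia-inducible factors are shown here because members of this list were higher together. They are the 250 bases before the RefSeq start (GRCm38.p6), 5′ to 3′ on the gene's strand and without bases that GENCODE annotates as exon, with ACGTG or its reverse complement CACGT in capitals:
Egln3 chr12:54203875-54204124, minus strand: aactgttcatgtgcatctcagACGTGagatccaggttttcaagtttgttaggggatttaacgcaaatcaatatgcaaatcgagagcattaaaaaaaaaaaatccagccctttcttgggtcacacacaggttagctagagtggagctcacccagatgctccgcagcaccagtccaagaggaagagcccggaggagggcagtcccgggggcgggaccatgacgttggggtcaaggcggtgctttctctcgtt
Ddit4 chr10:59951835-59952020, minus strand: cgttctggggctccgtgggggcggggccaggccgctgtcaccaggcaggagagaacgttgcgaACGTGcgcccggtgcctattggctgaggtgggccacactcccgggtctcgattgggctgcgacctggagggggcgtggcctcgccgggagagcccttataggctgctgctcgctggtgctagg
P4ha1 chr10:59323046-59323295, plus strand: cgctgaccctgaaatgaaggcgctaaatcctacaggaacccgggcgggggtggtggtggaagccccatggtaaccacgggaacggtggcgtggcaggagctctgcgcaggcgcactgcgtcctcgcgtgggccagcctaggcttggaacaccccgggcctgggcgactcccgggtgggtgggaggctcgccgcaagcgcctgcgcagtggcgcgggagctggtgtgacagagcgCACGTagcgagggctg
Ankrd37 chr8:45999868-46000100, minus strand: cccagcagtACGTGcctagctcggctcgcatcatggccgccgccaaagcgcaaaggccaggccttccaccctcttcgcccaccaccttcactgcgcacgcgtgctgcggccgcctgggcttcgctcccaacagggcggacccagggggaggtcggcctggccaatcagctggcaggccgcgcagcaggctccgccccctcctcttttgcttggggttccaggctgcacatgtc
P4ha2 chr11:54100674-54100923, plus strand: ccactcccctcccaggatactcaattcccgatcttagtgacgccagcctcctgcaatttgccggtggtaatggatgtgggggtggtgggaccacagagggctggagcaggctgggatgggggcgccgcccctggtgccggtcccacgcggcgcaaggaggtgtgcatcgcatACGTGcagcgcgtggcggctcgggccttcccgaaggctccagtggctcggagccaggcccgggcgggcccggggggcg
ACGTG is the core of the hypoxia response element and also lies within the E-box CACGTG bound by clock and MYC-type factors. It was found on either strand in 14 of 23 windows of the hypoxia list (60.9%; 18 genes matched by symbol), in 22.3% of 10667 windows of genes tested and in 16.6% of all 32851 windows of the same length. The list was drawn up to hold known hypoxia targets, so a high share was built into it and is not a result of these cultures. A match is a run of letters and not a measured binding site.

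The oxygen sensors themselves were among these genes. Egln3, a prolyl hydroxylase that is itself a target of the factors it destroys, was measured at 20.7, 22.5 and 19.6 RPKM with the empty vector and 139.5, 141 and 139.6 with the scrambled hairpin. No empty vector library came near the scrambled hairpin libraries, and the ratio of means was 6.68 (log2 difference 2.69, SE 0.0572, limma adjusted p = 5.19e-12). Egln1, the main oxygen sensor of most cells, was at 25.2 ± 1.02 and 113 ± 0.936 RPKM, a log2 difference of 2.13. Collagen-modifying hydroxylases followed the same direction. P4ha1, the catalytic subunit of collagen prolyl hydroxylase, was at 13.9, 15.2 and 14.2 RPKM with the empty vector and 65.6, 66.3 and 64.0 with the scrambled hairpin, a ratio of 4.53. P4ha2, its sister subunit, was at 6.00 ± 0.0781 and 25.8 ± 1.29 RPKM. Of the lysyl hydroxylases that prepare collagen for crosslinking, Plod1 was at 46.8 ± 0.911 and 111 ± 2.53 RPKM and Plod2 at 1.46 ± 0.116 and 8.43 ± 0.163 RPKM.

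Ero1l, Mif and Bnip3 had the highest levels of the list in the scrambled hairpin libraries. Ero1l, the oxidase that forms disulfide bonds in the endoplasmic reticulum, was at 183, 199 and 171 RPKM with the empty vector and 943, 936 and 971 with the scrambled hairpin. All 3 scrambled hairpin values exceeded every empty vector value, with a ratio of 5.15 (log2 difference 2.36, limma adjusted p = 3.28e-11). Bnip3, a mitophagy receptor, was at 169.6, 178 and 164 RPKM with the empty vector and 515, 505 and 529 with the scrambled hairpin, again without overlap and at a ratio of 3.03. Fam162a, a mitochondrial protein induced by low oxygen, was at 92.9 ± 3.92 and 456 ± 18.2 RPKM. The secreted cytokine Mif was at 321 ± 10.8 and 948 ± 29.2 RPKM. Higd1a, which assists respiratory complexes, was at 20.1 ± 0.816 and 67.7 ± 4.78 RPKM, and Ddit4, an inhibitor of mTOR complex 1, at 42.0 ± 1.79 and 188 ± 9.49 RPKM. Carbonic anhydrase 9 (Car9), a classical hypoxia marker at the cell surface, stood at 0.172, 0.260 and 0.123 RPKM with the empty vector and 4.56, 4.73 and 4.76 with the scrambled hairpin. It was near the lower limit in the empty vector group and above 4 RPKM in every scrambled hairpin library. Vegfa, the angiogenic growth factor, had a smaller difference, at 57.8 ± 1.05 and 83.9 ± 3.59 RPKM. There were 3 lower members. Adrenomedullin (Adm), a vasodilator peptide, was at 8.69 ± 1.03 and 6.50 ± 0.625 RPKM. Cited2, which competes with the hypoxia-inducible factors for their coactivator, was at 61.1 ± 2.47 and 42.4 ± 1.05 RPKM. Angptl4, an inhibitor of lipoprotein lipase that is also a PPAR target, was at 64.1 ± 2.81 and 54.2 ± 2.73 RPKM. The call of Angptl4 was lost with TPM, without a filter on low values, without empty vector replicate 2 or 3 and without scrambled hairpin replicate 1.

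Nearly the whole glycolytic pathway was higher with the scrambled hairpin. Of 16 enzymes tested among 17 listed, Aldoc being too low, 15 were higher and 1 lower, with a median difference of 1.21, and 14 were higher by a ratio of at least 1.5. In the order of the pathway, hexokinase 1 (Hk1) was at 4.92 ± 0.172 and 12.4 ± 0.319 RPKM and hexokinase 2 (Hk2) at 34.0 ± 1.51 and 70.0 ± 3.28 RPKM. The isomerase Gpi1 was at 104 ± 2.80 and 280.3 ± 4.29 RPKM. The phosphofructokinases of the committed step, Pfkl, Pfkm and Pfkp, had log2 differences of 0.99, 0.36 and 0.61. Aldoa, the most abundant enzyme of the list, was at 1585 ± 30.8 and 2420.2 ± 46.7 RPKM. The triose isomerase Tpi1 was at 363 ± 16.3 and 669 ± 7.64 RPKM. Several enzymes of the later, ATP-yielding steps had larger differences. Gapdh, often used as a reference gene, was at 189, 184 and 179.6 RPKM with the empty vector and 991, 864 and 952 with the scrambled hairpin. The lowest scrambled hairpin library was above every empty vector library, and the ratio of means was 5.09 (log2 difference 2.34, SE 0.109, limma adjusted p = 1.95e-09). Gapdh has processed pseudogenes and the treatment of reads with several matches is not stated, which leaves its absolute level uncertain.

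Pgk1, which makes the pathway's early ATP, was at 142, 148 and 143 RPKM with the empty vector and 603, 618 and 666 with the scrambled hairpin. The groups were far apart, at a ratio of 4.36 (log2 difference 2.11, limma adjusted p = 7.39e-11). Its promoter, shown because it holds 2 matches to the same motif within 250 bases, reads as follows, with ACGTG or CACGT in capitals:
Pgk1 chrX:106186850-106187099, plus strand: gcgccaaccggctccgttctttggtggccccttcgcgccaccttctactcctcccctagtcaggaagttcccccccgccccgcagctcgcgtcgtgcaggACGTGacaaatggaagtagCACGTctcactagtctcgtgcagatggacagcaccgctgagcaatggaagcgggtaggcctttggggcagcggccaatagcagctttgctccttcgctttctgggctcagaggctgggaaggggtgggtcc
In the glycolysis list 9 of 26 windows (34.6%; 16 genes) held the motif, beside 22.3% of the windows of genes tested. High shares of windows were not limited to lists with more members higher. They were 43.5% in the lysosome and citric acid cycle lists, where more members were lower. Counted by gene, the motif was in 10 of 19 lysosome and 5 of 17 citric acid cycle genes, beside 2176 of 8362 genes tested. In the mature fat cell list, also mostly lower, the share of windows was 5.00%. In the glycogen list, with more members higher, it was 55.6%. The part of the motif in these differences was not tested. The mutase Pgam1 was at 342 ± 6.77 and 953 ± 20.5 RPKM, and enolase 1 (Eno1) at 33.9 ± 0.368 and 105 ± 5.59 RPKM. Pyruvate kinase (Pkm) was at 218 ± 5.47 and 517 ± 12.2 RPKM. Ldha, the dehydrogenase that reduces pyruvate to lactate, was at 288 ± 15.1 and 698 ± 13.8 RPKM. These were all higher with the scrambled hairpin, as was the low neuronal enolase Eno2 at 0.262 ± 0.0251 and 3.01 ± 0.363 RPKM. Muscle enolase (Eno3) was the exception, at 6.00, 5.77 and 6.10 RPKM with the empty vector and 3.16, 3.74 and 3.26 with the scrambled hairpin. Here every empty vector value lay above every scrambled hairpin value, with a log2 difference of -0.67 (limma adjusted p = 1.47e-05).

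Steps that lead glucose in and pyruvate out were split by gene. Of 21 tested, 8 were higher and 7 lower (median -0.04). The basal glucose transporter Slc2a1 was at 16.2, 17.3 and 16.7 RPKM with the empty vector and 70.4, 74.1 and 73.6 with the scrambled hairpin, a ratio of 4.35 with no overlap. The insulin-responsive transporter Slc2a4 was at 65.2 ± 1.06 and 63.1 ± 1.21 RPKM and did not pass (limma adjusted p = 0.339). Median-ratio scaling, quantile normalization and scaling without mitochondrial transcripts each called Slc2a4 lower, with -0.13 on the log2 scale for the first. The lactate transporter Slc16a1 was higher, at 11.4 ± 0.451 and 23.0 ± 0.803 RPKM, and so was its chaperone basigin (Bsg), at 615 ± 16.5 and 1414 ± 15.1 RPKM. Pyruvate dehydrogenase kinases switch off the use of pyruvate in mitochondria. Pdk1 at 12.8 ± 1.15 and 35.4 ± 1.51 RPKM and Pdk3 at 20.5 ± 0.599 and 43.9 ± 0.877 RPKM were higher, and Pdk2 at 38.8 ± 0.326 and 26.6 ± 0.424 RPKM was lower. The phosphatase Pdp1, which undoes their action, was lower, at 11.5 ± 0.874 and 4.08 ± 0.0931 RPKM. Side branches of glycolysis had more members higher than lower. In the pentose phosphate pathway 6 of 8 were higher and 2 lower. Transketolase (Tkt), of its non-oxidative arm, was higher at 91.4 ± 3.48 and 139 ± 10.6 RPKM, and the NADPH-forming Pgd lower at 57.7 ± 0.899 and 45.2 ± 0.773 RPKM. In glycogen metabolism 8 of 11 were higher (72.7%) and 2 lower (18.2%), beside 44.8% and 27.0% of all genes. Glycogen synthase (Gys1) was at 73.1 ± 0.933 and 143 ± 5.79 RPKM, and the targeting subunit Ppp1r3b, which activates it, at 1.95 ± 0.122 and 6.61 ± 0.355 RPKM. The phosphorylase Pygb, which breaks glycogen down, was lower, at 91.6 ± 2.66 and 58.1 ± 4.07 RPKM.

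**Figure D2:**
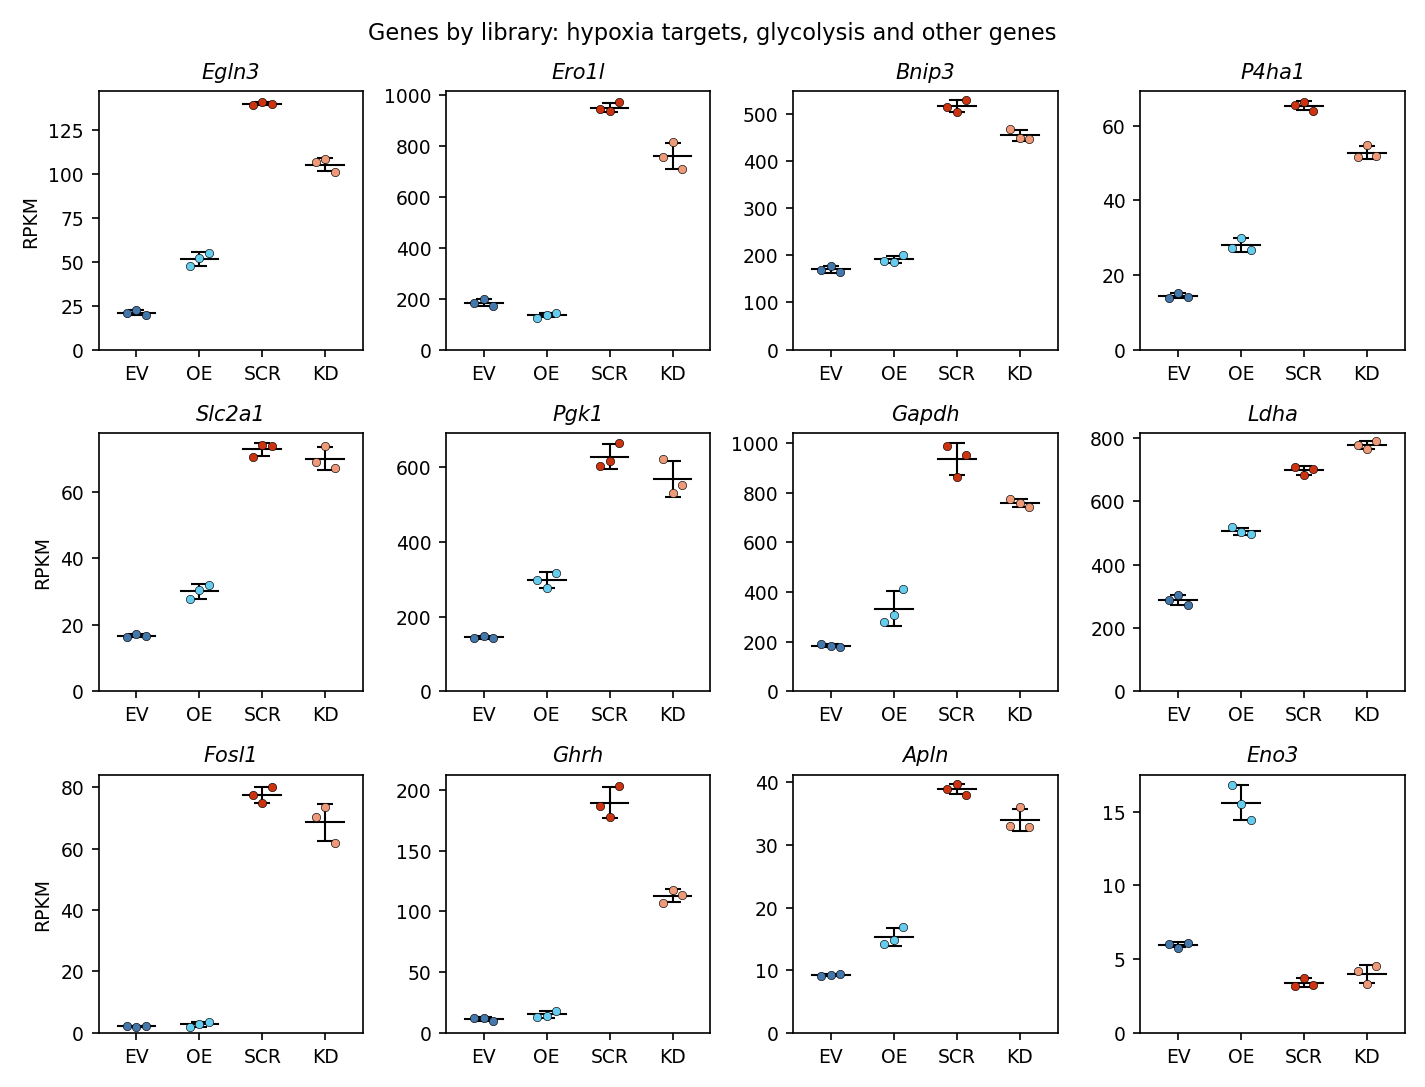
RPKM of 12 genes (y axes from 0) in each library of the empty vector (EV), Foxp1 overexpression (OE), scrambled hairpin (SCR) and Foxp1 hairpin (KD) groups; points are libraries, bars mean ± SD (n = 3). In 11 panels the SCR points lie above the EV points without overlap, and in the panel of Eno3 they lie below.

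Some of the largest differences were in secreted factors and regulators. The 12 largest on the higher side, among genes with a mean of at least 5 RPKM over the 6 libraries, were led by Fosl1, a FOS-family partner of JUN, at 2.17, 1.92 and 2.02 RPKM with the empty vector and 77.7, 74.9 and 80.3 with the scrambled hairpin. It was close to 2 RPKM in every empty vector library and above 70 in every scrambled hairpin library, a ratio of 38.1 (log2 difference 4.69, SE 0.111, limma adjusted p = 1.02e-11). Growth hormone releasing hormone (Ghrh), best known from the hypothalamus, was at 11.1 ± 1.63 and 189 ± 12.8 RPKM. The secreted semaphorin Sema3g was at 2.57 ± 0.193 and 38.1 ± 2.49 RPKM. Peg10, an imprinted gene derived from a retrotransposon, was at 13.2 ± 1.11 and 113 ± 1.86 RPKM. The adhesion receptor Adgrf5 was at 0.860 ± 0.0687 and 11.9 ± 0.220 RPKM and the fatty acyl reductase Far2 at 0.732 ± 0.135 and 12.02 ± 0.301 RPKM. Prelid2 was at 1.28 ± 0.179 and 15.7 ± 0.626 RPKM and the mitochondrial adenylate kinase Ak4 at 2.63 ± 0.257 and 20.3 ± 0.828 RPKM. Prl2c3 and Prl2c5, prolactin-family genes of the proliferin cluster, were on the list as well (log2 differences 2.75 and 3.07), but near-identical copies make their separate levels uncertain. Egln3 was also among the 12.

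Contractile genes and targets of serum response factor and YAP were lower with the scrambled hairpin. Of 15 tested among 18 listed, Cnn1, Ccn2 and Ankrd1 being too low, 12 were lower and 2 higher, with a median difference of -1.09, beside 27.0% lower among all genes. The size of that median rested partly on low genes. A minimum of 5 RPKM left 12 to test, with 9 lower, 2 higher and a median of -0.48. The promoters of 3 lower members that hold a CArG box, the element bound by serum response factor, are shown because members of this list were lower together, with that element in capitals, in the same frame as the promoters above:
Acta1 chr8:123894776-123895025, minus strand: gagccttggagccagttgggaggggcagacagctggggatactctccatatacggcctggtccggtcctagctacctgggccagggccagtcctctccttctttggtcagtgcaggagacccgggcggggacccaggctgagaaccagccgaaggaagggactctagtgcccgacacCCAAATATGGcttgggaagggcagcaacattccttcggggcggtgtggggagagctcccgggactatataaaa
Myl9 chr2:156775214-156775419, plus strand: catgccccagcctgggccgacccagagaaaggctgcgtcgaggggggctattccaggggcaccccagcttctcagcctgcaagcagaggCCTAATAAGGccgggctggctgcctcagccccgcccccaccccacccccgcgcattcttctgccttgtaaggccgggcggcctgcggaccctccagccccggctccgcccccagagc
Cnn2 chr10:79988350-79988583, plus strand: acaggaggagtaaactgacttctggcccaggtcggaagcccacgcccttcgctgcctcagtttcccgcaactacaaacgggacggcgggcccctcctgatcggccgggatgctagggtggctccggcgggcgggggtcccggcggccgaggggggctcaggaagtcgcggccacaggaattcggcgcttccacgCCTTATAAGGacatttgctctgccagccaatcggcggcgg
The CArG box, searched on both strands, was found in 5 of 14 windows of this list (35.7%; 13 genes matched by symbol), in 1.18% of windows of genes tested and in 1.47% of all windows. The list was drawn up to hold targets of serum response factor, so a high share was built into it and is not a result of these cultures. Smooth muscle actin (Acta2) was at 35.2, 30.2 and 34.4 RPKM with the empty vector and 2.17, 2.14 and 2.13 with the scrambled hairpin. Every scrambled hairpin library was more than 10-fold below the lowest empty vector library, and the ratio of the empty vector mean to the scrambled mean was 15.5 (log2 difference -3.44, SE 0.236, limma adjusted p = 5.83e-08). Skeletal muscle actin (Acta1) was at 12.5, 13.7 and 13.0 RPKM with the empty vector and 1.02, 1.11 and 1.03 with the scrambled hairpin, a ratio of 12.4 in the same sense. The myosin regulatory light chain Myl9 was at 4.85 ± 0.603 and 0.332 ± 0.151 RPKM and the actin-binding transgelin (Tagln) at 3.68 ± 0.216 and 0.255 ± 0.0161 RPKM. Among the controls, Myl9 and Tagln reached the level for testing through the empty vector group alone. Calponin 2 (Cnn2) was at 25.6 ± 1.998 and 7.55 ± 0.821 RPKM, and filamin A (Flna), which crosslinks actin, at 43.1 ± 0.218 and 16.2 ± 1.06 RPKM. The secreted YAP target Ccn1 was at 25.7 ± 2.17 and 10.6 ± 0.569 RPKM. All of these were lower, while beta-tropomyosin (Tpm2) was higher, at 5.09, 4.36 and 4.32 RPKM with the empty vector and 13.8, 13.1 and 13.4 with the scrambled hairpin. Srf itself was also higher, by less, at 13.7 ± 0.0793 and 16.3 ± 1.03 RPKM. Vinculin (Vcl), which anchors actin at adhesions, was at 27.1 ± 0.350 and 26.9 ± 0.631 RPKM and did not pass (limma adjusted p = 0.777), although median-ratio scaling and quantile normalization each called it lower by 0.09.

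Some markers of smooth muscle were lower beside these genes, with which they share Acta2. The summed level of the 5 smooth muscle markers was 47.1 to 52.7 RPKM with the empty vector and 17.9 to 19.3 with the scrambled hairpin, 3 of 4 tested being lower and Smtn higher. Nearly all of the gap between these sums lay in Acta2, at 33.3 ± 2.68 and 2.15 ± 0.0223 RPKM. With TPM only 2 were lower, the call of Des being lost (limma adjusted p = 0.0606). Myh11, the smooth muscle myosin, was at 3.25 ± 0.0509 and 1.65 ± 0.196 RPKM, and Cnn1 near 0 in both groups. Skeletal muscle markers other than Acta1 were near or at 0, and Mb did not pass. The part of such cells in the contractile result was not tested.

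Matrix genes outside the collagens were lower more often than higher. Among 25 matrix proteins and matrix enzymes of this kind tested, 15 were lower and 9 higher (median -0.30). Thrombospondin 1 (Thbs1), an activator of TGF-beta and an inhibitor of vessel growth, was at 19.4, 17.1 and 18.2 RPKM with the empty vector and 0.647, 0.758 and 0.604 with the scrambled hairpin. It was under 1 RPKM in every scrambled hairpin library, and the empty vector mean was 27.2 times as high (log2 difference -3.53). Among the controls it reached the level for testing through the empty vector group alone. The small proteoglycan osteoglycin (Ogn) was at 46.5, 36.1 and 37.5 RPKM with the empty vector and 3.48, 3.29 and 4.40 with the scrambled hairpin, without overlap. The metalloproteinase inhibitor Timp2 was lower, at 98.6 ± 5.58 and 30.4 ± 1.57 RPKM. Osteopontin (Spp1) at 7.99 ± 0.157 and 27.5 ± 1.47 RPKM and the basement membrane protein nidogen (Nid1) at 96.7 ± 1.29 and 157 ± 2.64 RPKM were higher. Collagen chains had 9 of 18 higher (50%) and 4 lower (22.2%), near the 44.8% and 27.0% of all genes. Col6a3, whose cleaved end is the fat-tissue signal endotrophin, was higher at 129 ± 0.415 and 266 ± 4.18 RPKM. Col5a3 was higher at 21.1 ± 0.725 and 48.5 ± 1.46 RPKM. Col12a1 was lower at 3.25 ± 0.229 and 1.44 ± 0.0582 RPKM, and so was the basement membrane chain Col4a5 at 13.8 ± 0.378 and 9.09 ± 0.142 RPKM.

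Hallmark genes of mature fat cells were lower on the whole but remained abundant. Of 20 tested, 13 were lower and 3 higher with the scrambled hairpin (median -0.33), beside 27.0% lower and 44.8% higher among all genes. Their summed level was 14618 to 14850.0 RPKM with the empty vector and 10808 to 10944 with the scrambled hairpin. Adiponectin (Adipoq), the insulin-sensitising hormone of fat, was at 1967, 1934 and 1944 RPKM with the empty vector and 883, 899 and 949 with the scrambled hairpin. The groups did not overlap, and the empty vector mean was 2.14 times the scrambled mean (log2 difference -1.098, SE 0.0477, limma adjusted p = 1.13e-09). Adipsin (Cfd), a complement protease secreted by fat cells, was at 1579, 1685 and 1684 RPKM with the empty vector and 380.3, 369 and 392 with the scrambled hairpin, a ratio of 4.34. The beta-3 adrenergic receptor Adrb3, which starts lipolysis under noradrenaline, was at 4.18 ± 0.379 and 0.490 ± 0.0811 RPKM. Gpd1, which makes the glycerol backbone of triglyceride, was at 893 ± 5.43 and 334 ± 11.4 RPKM. The fatty acid transporter Cd36 was at 675 ± 3.18 and 393 ± 14.3 RPKM and lipoprotein lipase (Lpl) at 1418 ± 42.4 and 1026 ± 52.2 RPKM. The lipases Pnpla2 and Lipe, which open stored triglyceride, were at 1506 ± 45.1 and 908 ± 22.0 RPKM and at 268 ± 3.53 and 201 ± 6.04 RPKM. All of these were lower, whereas 3 markers were higher. The fatty acid carrier Fabp4 was at 1056 ± 34.6 and 1580.0 ± 64.5 RPKM, the glyceroneogenic enzyme Pck1 at 1.995 ± 0.115 and 3.33 ± 0.0870 RPKM and angiotensinogen (Agt) at 1209.5 ± 32.6 and 1395 ± 40.0 RPKM. Cidec, Cebpa, Slc2a4 and Adig did not pass. Cidec was called lower with median-ratio scaling (log2 difference -0.17) and with mitochondrial transcripts left out of the scaling (-0.14).

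Fat-derived hormones did not move together. Of 18 adipokines tested, 10 were lower and 7 higher (median -0.28), beside 27.0% lower and 44.8% higher among all genes. Apelin (Apln), a peptide hormone that responds to insulin and to low oxygen, was at 9.18 ± 0.189 and 38.9 ± 0.818 RPKM, a ratio of 4.24 without overlap. Lipocalin 2 (Lcn2) was at 82.7 ± 2.99 and 187 ± 8.73 RPKM and neuregulin 4 (Nrg4) at 1.33 ± 0.0966 and 2.73 ± 0.126 RPKM, both higher. Resistin (Retn) at 344 ± 6.05 and 268 ± 10.0 RPKM and haptoglobin (Hp) at 640.3 ± 21.7 and 370.0 ± 4.99 RPKM were lower. Adipogenic transcription factors were balanced, with 8 of 21 higher and 8 lower (38.1% each). Cebpb, which acts early in differentiation, was higher, at 105 ± 3.58 and 181 ± 2.95 RPKM. Nr1h3, the liver X receptor alpha, was lower, at 69.4 ± 0.578 and 38.99 ± 0.794 RPKM. Srebf1, which drives lipogenesis under insulin, was at 32.9 ± 1.90 and 21.5 ± 0.647 RPKM, and Mlxipl, which does so under glucose, at 3.34 ± 0.156 and 1.85 ± 0.109 RPKM. PPARgamma targets had 6 of 17 higher and 9 lower. The fatty acid transporter Slc27a1 at 23.6 ± 0.754 and 6.44 ± 0.198 RPKM and the glycerol channel Aqp7 at 9.09 ± 0.357 and 3.28 ± 0.198 RPKM had the largest differences among the lower ones.

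Lipid synthesis, storage and breakdown showed a similar mix. In fatty acid and triglyceride synthesis 15 of 24 were lower and 6 higher (median -0.27), or 16 and 3 with median-ratio scaling. The stearoyl-CoA desaturase Scd1, among the most abundant messages of these cells, was at 5688, 6099 and 5832 RPKM with the empty vector and 3193, 2944 and 3011 with the scrambled hairpin. Its paralog Scd3 was at 24.3 ± 1.43 and 8.16 ± 0.332 RPKM. The call of Scd1 was lost under quantile normalization (log2 difference -0.05, limma adjusted p = 0.631), which sets levels by their rank within a library. The RPKM of Scd1 did not overlap between the groups. Thrsp, a lipogenic nuclear protein, was lower at 591 ± 20.8 and 241 ± 2.43 RPKM. The fatty acid elongases Elovl3 at 5.17 ± 0.593 and 24.7 ± 0.741 RPKM and Elovl5 at 31.7 ± 0.350 and 59.6 ± 1.01 RPKM were higher. In lipolysis 9 of 15 were lower and 5 higher. G0s2, the inhibitor of the lipase Pnpla2, was higher at 169 ± 10.1 and 332 ± 5.57 RPKM. Lipid droplet proteins had 5 of 11 higher (45.5%) and 3 lower (27.3%), about the shares of all genes, or 5 and 5 with median-ratio scaling and with scaling without mitochondrial transcripts. Hilpda, a hypoxia-inducible inhibitor of the same lipase, was at 9.56 ± 0.733 and 27.6 ± 0.396 RPKM. Fatty acid oxidation was lower in 14 of 20 and higher in 2 (median -0.35). Its gatekeeper Cpt1a, which admits fatty acids to mitochondria, was at 5.28 ± 0.214 and 1.73 ± 0.0842 RPKM. The dehydrogenase Acadm was at 210.4 ± 5.60 and 118 ± 2.83 RPKM and Acadvl, for very long chains, at 186 ± 6.19 and 115 ± 4.12 RPKM. Breakdown of branched-chain amino acids was lower in 9 of 17 genes and higher in 2, or 4 with TPM.

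**Figure D3:**
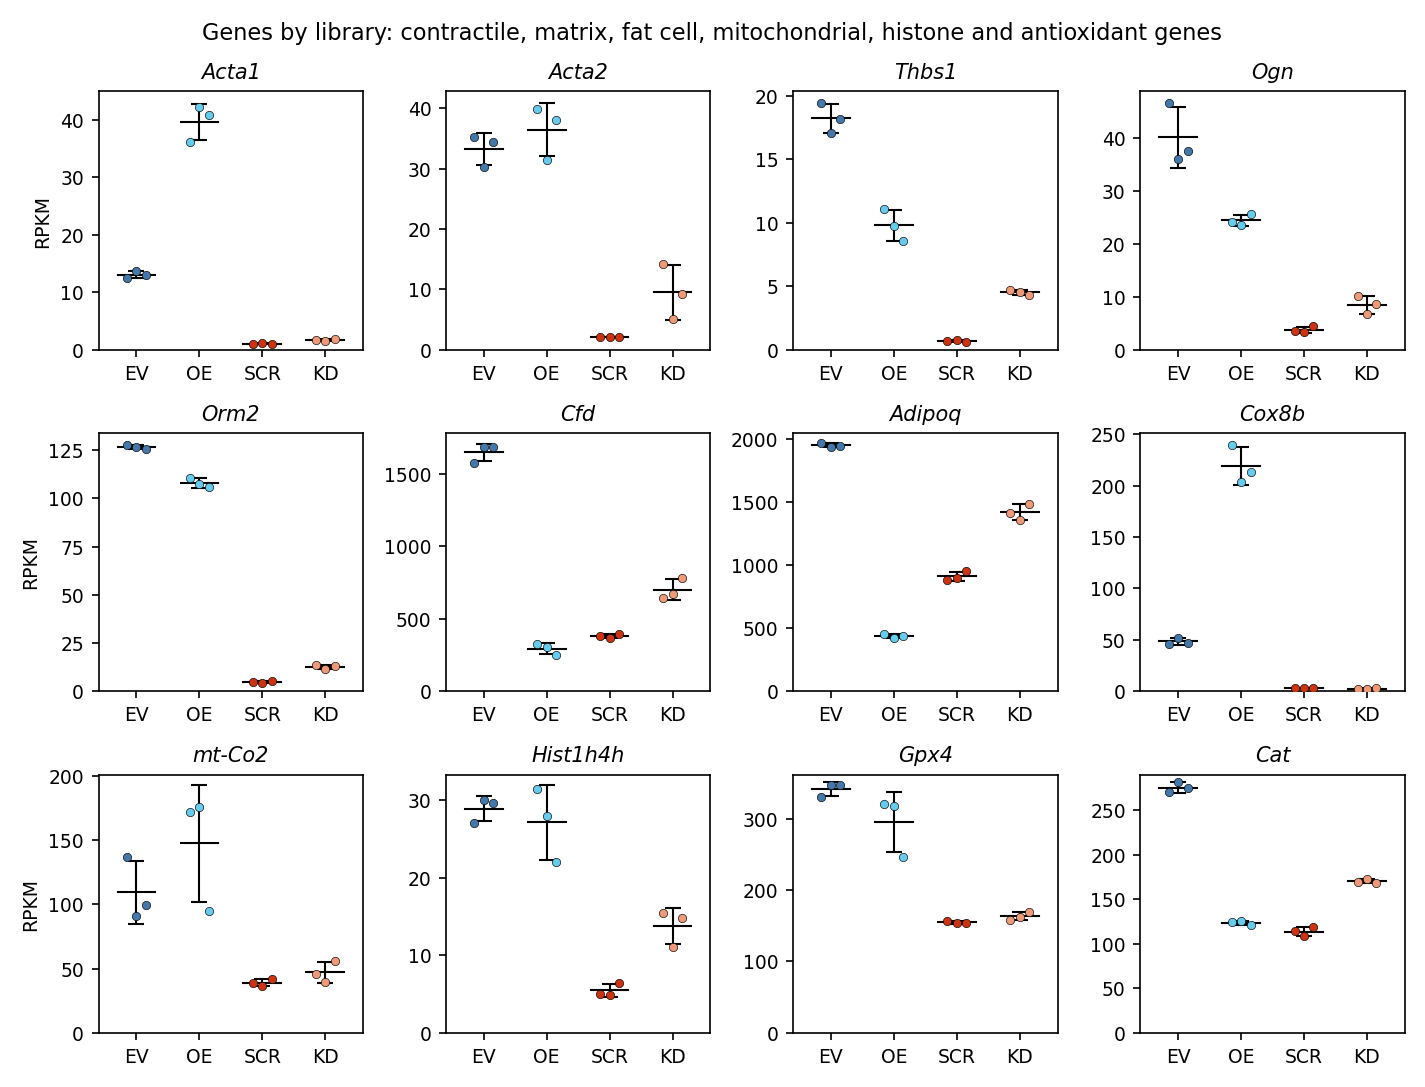
RPKM of 12 genes (y axes from 0) in each library of the empty vector (EV), Foxp1 overexpression (OE), scrambled hairpin (SCR) and Foxp1 hairpin (KD) groups; points are libraries, bars mean ± SD (n = 3). In every panel the SCR points lie below the EV points without overlap; in the panels of Cfd, Adipoq and Cat the OE points lie below the EV points and the KD points above the SCR points.

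Mitochondrially encoded messages were lower with the scrambled hairpin. Of 13, 11 passed as lower and 2 did not pass, and the median difference was -0.96. Their summed level was 65288 to 71527 RPKM against 35226 to 42393. Subunit 1 of complex I (mt-Nd1) was at 15089, 13641 and 14620.0 RPKM with the empty vector and 6088, 5037 and 6479 with the scrambled hairpin, without overlap (log2 difference -1.31, SE 0.121, limma adjusted p = 8.71e-07). Subunit 1 of cytochrome oxidase (mt-Co1) was at 26172 ± 586 and 15692 ± 1099.7 RPKM. Subunit 2 (mt-Co2) had the largest log2 difference of the list (-1.45), at 137, 91.3 and 99.9 RPKM with the empty vector and 39.04, 36.3 and 41.6 with the scrambled hairpin. The light-strand message mt-Nd6 was at 79.4 ± 8.71 and 99.6 ± 9.36 RPKM and did not pass (limma adjusted p = 0.0865). TPM called mt-Nd6 higher, as did a fit on the 6 libraries alone. Quantile normalization gave 8 lower and 1 higher. It sets the most abundant message, here mt-Co1, to 1 level in every library, so that its difference became 0, and its call was also lost without a filter on low values. Some of these messages have near-identical nuclear copies, which leaves the levels of single mitochondrial genes uncertain.

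Nuclear genes of the respiratory chain differed little. This list had 27 of 76 lower and 13 higher, with a median of -0.05. Libraries rescaled to TPM reversed that balance, at 23 higher and 16 lower, and median-ratio scaling gave 8 and 36. In the citric acid cycle 11 of 20 were lower and 2 higher, or 7 and 2 with TPM, and 1 higher when any single library was left out, with no filter on low values or with each of the other scalings. Succinate dehydrogenase A (Sdha) was lower at 194 ± 3.99 and 136 ± 3.99 RPKM, and the isocitrate dehydrogenase subunit Idh3a higher at 58.8 ± 2.68 and 98.9 ± 1.89 RPKM. Mitophagy and fission genes had 6 of 13 lower and 4 higher. Pink1, the kinase that marks damaged mitochondria, was lower at 59.8 ± 1.03 and 32.7 ± 1.32 RPKM. The receptor Bnip3l, a relative of Bnip3, was higher at 41.4 ± 1.04 and 76.7 ± 2.32 RPKM. Among thermogenic genes and regulators of mitochondrial number, 9 of 15 were higher (60%) and 4 lower (26.7%), beside 44.8% and 27.0% of all genes. Cox8b, the cytochrome oxidase subunit of brown fat and muscle, was at 46.0, 51.9 and 47.3 RPKM with the empty vector and 2.98, 3.12 and 3.45 with the scrambled hairpin, a ratio of 15.2 toward the empty vector. Cox7a1 at 19.6 ± 2.12 and 33.4 ± 1.18 RPKM and Cidea at 2.99 ± 0.729 and 5.77 ± 0.487 RPKM, which also mark brown fat, were higher. The coactivator Ppargc1a, which promotes mitochondrial biogenesis, was lower at 2.26 ± 0.130 and 1.69 ± 0.0381 RPKM. TPM put 9 genes of this list higher and 2 lower, and quantile normalization 6 higher and 6 lower.

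Proliferation genes were higher from low levels, and histone messages lower. Of 31 cell cycle genes tested, 26 were higher and 5 lower (median 0.63), or 14 and 5 (median 0.25) among those with at least 5 RPKM. All genes tested had 44.8% higher and 27.0% lower. The summed level of the list overlapped between the groups, at 574 to 590 RPKM with the empty vector and 580 to 592 with the scrambled hairpin. The mitotic kinase Plk1 was at 0.803, 0.745 and 0.684 RPKM with the empty vector and 6.48, 7.12 and 6.95 with the scrambled hairpin, a ratio of 9.21 (log2 difference 2.17). Cyclin A2 (Ccna2) was at 0.640 ± 0.0477 and 4.82 ± 0.201 RPKM and topoisomerase 2A (Top2a) at 0.668 ± 0.0173 and 3.91 ± 0.128 RPKM. The ribonucleotide reductase subunit Rrm2 was at 1.89 ± 0.128 and 8.46 ± 0.308 RPKM and the proliferation antigen Mki67 at 0.251 ± 0.0279 and 1.85 ± 0.0288 RPKM. Plk1, Ccna2, Top2a and Mki67 lay under 1 RPKM with the empty vector. Among the controls they reached the level for testing through the scrambled hairpin group alone. The 5 lower members are known for roles in G1. Cyclin D1 (Ccnd1) was at 10.7 ± 0.690 and 3.92 ± 0.207 RPKM and cyclin D2 (Ccnd2) at 77.4 ± 0.922 and 60.1 ± 0.281 RPKM, and the others were the CDK inhibitors Cdkn2a, Cdkn2b and Cdkn2c. A different pair of CDK inhibitors was among the 26 that were higher, Cdkn1a at 109 ± 4.14 and 140.4 ± 3.82 RPKM and Cdkn1b at 9.95 ± 0.133 and 11.6 ± 0.0609 RPKM. Of 28 replication-dependent histone genes found, 13 were tested, and all 13 were lower (median -1.10), 12 by a ratio of at least 1.5. Hist1h4h, a histone H4 gene, was at 27.0, 29.99 and 29.6 RPKM with the empty vector and 4.96, 4.90 and 6.46 with the scrambled hairpin. Hist1h2bc, a histone H2B gene, was at 51.3 ± 1.85 and 16.1 ± 2.24 RPKM. Messages of this class normally end in a stem-loop and not in a poly(A) tail, and how RNA was selected for the libraries is not stated. Only 4 histone genes reached 5 RPKM in 3 libraries.

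Genes for making and folding protein were higher. Of 79 cytosolic ribosomal protein genes, 58 were higher and 21 did not pass (median 0.38), beside 44.8% higher and 27.0% lower among all genes. Rpl13a of the large subunit was at 22.4 ± 0.691 and 37.7 ± 1.04 RPKM. Such genes have many pseudogenes, so single levels are uncertain. The unfolded protein response had 15 of 18 higher and 1 lower (median 0.51). The chaperone Hspa5 was at 206, 219.5 and 198 RPKM with the empty vector and 381, 395 and 384 with the scrambled hairpin, without overlap. The secreted folding factor Manf was at 12.8 ± 0.0157 and 28.5 ± 1.45 RPKM. ATF4 targets, the amino acid response, had 16 of 22 higher and 3 lower. The proline synthesis enzymes Aldh18a1 at 15.6 ± 0.652 and 41.8 ± 1.86 RPKM and Pycr1 at 6.75 ± 0.302 and 17.04 ± 0.299 RPKM were higher, as was the amino acid carrier Slc7a5 at 88.7 ± 2.39 and 189 ± 6.13 RPKM. Phgdh, which opens serine synthesis, was lower at 45.4 ± 0.0990 and 23.6 ± 0.883 RPKM. Cholesterol synthesis and uptake had 17 of 24 higher and 5 lower (median 0.29). The sterol demethylase Cyp51 was higher at 69.5 ± 1.85 and 147 ± 3.88 RPKM, and Tm7sf2, a sterol reductase, lower at 8.51 ± 0.0981 and 5.37 ± 0.2002 RPKM. Proteasome subunits had 14 of 31 lower and 3 higher. The former count ran from 6 lower with TPM to 23 with median-ratio scaling and was 9 without empty vector replicate 1, without empty vector replicate 2 or without scrambled hairpin replicate 2.

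Defence against oxidants, metal handling and lysosomes differed as well. NRF2 targets and glutathione genes had 14 of 18 lower and 2 higher (median -0.36), beside 27.0% lower and 44.8% higher among all genes. Glutathione peroxidase 4 (Gpx4), which protects membrane lipids from peroxidation, was at 331, 348 and 348 RPKM with the empty vector and 157, 154 and 153 with the scrambled hairpin. Catalase (Cat), which destroys hydrogen peroxide, was at 270.3, 282 and 275 RPKM with the empty vector and 114, 109 and 118 with the scrambled hairpin. Both were lower in every scrambled hairpin library, at log2 differences of -1.14 and -1.27 (limma adjusted p = 7.52e-08 and 4.45e-11). The glutathione transferases Mgst1 at 404 ± 8.43 and 161 ± 7.08 RPKM and Gstm1 at 170.0 ± 6.601 and 81.5 ± 1.91 RPKM were lower. Heme oxygenase 1 (Hmox1) was higher at 249 ± 5.92 and 305 ± 9.40 RPKM. Iron and metal genes had 8 of 14 higher and 6 lower. The metallothioneins, which bind zinc and copper, were higher, Mt2 at 583 ± 16.4 and 2280.4 ± 92.9 RPKM and Mt1 at 564 ± 9.62 and 1193 ± 52.3 RPKM. Ferritin heavy chain (Fth1), which stores iron, was lower at 1445 ± 36.1 and 801 ± 18.7 RPKM, and the metalloreductase Steap4 lower at 10.5 ± 0.361 and 2.97 ± 0.0555 RPKM. Lysosomal genes had 19 of 26 lower and 6 higher (median -0.31). The protease cathepsin L (Ctsl) was at 113 ± 4.18 and 48.5 ± 0.500 RPKM and hexosaminidase A (Hexa) at 95.4 ± 3.46 and 48.1 ± 2.03 RPKM. On the higher side stood Npc1 at 5.99 ± 0.184 and 9.002 ± 0.429 RPKM and Npc2 at 135 ± 3.15 and 178 ± 5.25 RPKM, which export cholesterol from lysosomes.

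Immune-type genes leaned lower with the scrambled hairpin. In inflammation and the acute phase 10 of 15 were lower and 5 higher (median -0.59), beside 27.0% lower and 44.8% higher among all genes. Complement C3 was lower at 1138 ± 31.8 and 555 ± 21.7 RPKM and the orosomucoid Orm1 lower at 191 ± 3.38 and 86.2 ± 2.27 RPKM. The protease inhibitor Serpina3n was higher at 41.7 ± 1.59 and 66.05 ± 2.49 RPKM. Orm2, a close relative of Orm1, was at 128, 127 and 126 RPKM with the empty vector and 4.53, 4.39 and 5.14 with the scrambled hairpin, a ratio of 27.1 toward the empty vector (log2 difference -4.49, SE 0.0586, limma adjusted p = 9.49e-14). Orm1 and Orm2 are near-identical, so the split between them is uncertain. In the interferon response and antigen presentation 9 of 14 were lower and 2 higher (median -0.50). The ubiquitin-like Ubd was at 33.1 ± 0.791 and 5.01 ± 0.550 RPKM and the guanylate-binding protein Gbp2 at 11.3 ± 0.407 and 1.89 ± 0.153 RPKM. Beta-2 microglobulin (B2m), of the class I antigen complex, was at 502 ± 9.10 and 257 ± 14.6 RPKM. These were lower, and the interferon regulator Irf7 was higher at 2.50 ± 0.143 and 3.68 ± 0.117 RPKM. Hairpin RNAs enter the RNA interference machinery. Of 17 of its genes and sensors of double-stranded RNA, 6 were higher (35.3%) and 3 lower (17.6%), both shares being under the 44.8% and 27.0% of all genes, or 5 lower with quantile normalization. The slicer Ago2 was higher, at 6.95, 6.92 and 6.52 RPKM with the empty vector and 14.2, 14.4 and 13.4 with the scrambled hairpin. The sensor Tlr3 was lower at 2.08 ± 0.0627 and 1.18 ± 0.103 RPKM, and the microprocessor subunit Dgcr8 lower at 3.30 ± 0.132 and 2.38 ± 0.144 RPKM.

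Other genes with the largest differences on the lower side had no list in common. Apolipoprotein D (Apod), a lipid carrier of fibroblasts and fat, was at 111, 98.4 and 112 RPKM with the empty vector and 4.02, 4.05 and 5.05 with the scrambled hairpin. That is a ratio of 24.5, again with no overlap (log2 difference -4.34, limma adjusted p = 6.38e-12). The small heat shock protein Cryab was at 157 ± 12.3 and 24.3 ± 0.577 RPKM. Monoamine oxidase A (Maoa), which degrades noradrenaline, was at 53.6 ± 1.94 and 8.06 ± 0.211 RPKM. The apolipoprotein Apoa4 was at 16.6 ± 1.84 and 1.18 ± 0.0680 RPKM, the plasma protein Itih4 at 30.9 ± 1.73 and 3.83 ± 0.155 RPKM and the tetranectin gene Clec3b at 13.1 ± 0.499 and 1.32 ± 0.380 RPKM. These genes made up the 12 on this side together with Acta1, Acta2, Cox8b, Ogn, Thbs1 and Orm2.

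Clock and immediate early genes had more members higher than lower, and insulin signalling genes were split. Of 17 circadian clock genes 13 were higher and 2 lower (median 0.39), or 1 lower with TPM, beside 44.8% higher and 27.0% lower among all genes. The repressor Bhlhe40, also a known hypoxia target, was at 15.96 ± 0.651 and 63.0 ± 2.07 RPKM, and the repressor Ciart at 1.90 ± 0.178 and 5.80 ± 0.213 RPKM. Immediate early genes had 10 of 16 higher, with Egr2 at 0.531 ± 0.0318 and 4.16 ± 0.244 RPKM and Ier3 at 4.96 ± 0.497 and 13.9 ± 0.436 RPKM beside Fosl1. They had 2 lower, or 4 with median-ratio scaling or quantile normalization, none with TPM, and 1 without a filter on low values or without empty vector replicate 1 or 3 or scrambled hairpin replicate 1 or 3. Insulin signalling had 7 of 19 higher (36.8%) and 8 lower (42.1%). The receptor substrate Irs1 was lower at 7.98 ± 0.240 and 3.90 ± 0.0751 RPKM and Irs2 higher at 16.04 ± 0.117 and 24.8 ± 0.940 RPKM. Tbc1d4, which holds back Slc2a4 vesicles until insulin acts, was higher at 6.67 ± 0.119 and 13.6 ± 0.316 RPKM.

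Growth factor and hormone pathways were mixed as well. TGF-beta and BMP signalling had 10 of 20 higher (50%) and 6 lower (30%), near the 44.8% and 27.0% of all genes. The receptor Tgfbr2 was higher at 12.9 ± 0.274 and 22.3 ± 0.902 RPKM, and the BMP target Id3 lower at 26.4 ± 1.04 and 10.7 ± 0.437 RPKM. Wnt genes had 7 of 13 lower and 3 higher. The Wnt-binding Sfrp2 was lower at 2.51 ± 0.298 and 0.285 ± 0.0472 RPKM, and the ligand Wnt4 higher at 0.686 ± 0.0546 and 3.71 ± 0.110 RPKM. The IGF axis was even at 5 and 5 of 10. The binding protein Igfbp4 was higher at 116 ± 2.98 and 257 ± 3.04 RPKM and Igfbp3 lower at 12.6 ± 0.813 and 3.96 ± 0.274 RPKM. The imprinted RNA H19 was at 0.149 ± 0.0101 and 4.72 ± 0.588 RPKM. Glucocorticoid receptor targets had 6 of 15 higher and 5 lower, or 8 and 3 with TPM. The chaperone Fkbp5 was higher at 80.3 ± 2.82 and 159 ± 7.83 RPKM, and the anti-inflammatory Tsc22d3 lower at 85.5 ± 2.83 and 54.5 ± 2.08 RPKM. Of 16 p53 targets 6 were higher and 6 lower. Mdm2, which degrades p53, was higher at 422 ± 10.1 and 783 ± 8.34 RPKM, and the death receptor Fas lower at 4.00 ± 0.247 and 1.75 ± 0.147 RPKM. Caveolar genes had 4 of 8 lower and 1 higher. The coat protein Cav1 was lower at 744 ± 12.1 and 444 ± 21.7 RPKM and its partner Cavin1 higher at 209 ± 3.62 and 345 ± 1.21 RPKM. Here 2 were higher with TPM, with voom, with no variance trend and without empty vector replicate 1. Nuclear long noncoding RNAs had 4 of 8 higher (50%) and 2 lower (25%), near the shares of all genes, and neither count held across settings. Only 1 was higher with median-ratio scaling, quantile normalization, scaling without mitochondrial transcripts, no filter on low values or without scrambled hairpin replicate 3, and 2 without empty vector replicate 1, 2 or 3. None was lower with TPM, with no filter, with the replicate block, or without empty vector replicate 1 or scrambled hairpin replicate 1 or 3, and 1 without empty vector replicate 2. The medians of the lists of glucose uptake, adipogenic transcription factors, lipid droplets, the nuclear-encoded respiratory chain, RNA sensing, insulin, glucocorticoid, TGF-beta, IGF and p53 genes changed sign with at least 1 other scaling. A minimum of 5 RPKM left fewer genes to test and lowered the counts of lists with many low genes, among them adipokines (4 higher and 7 lower), adipogenic transcription factors (4 and 5), inflammation (3 and 5), Wnt (2 and 4) and TGF-beta genes (7 and 3).

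**Figure D4:**
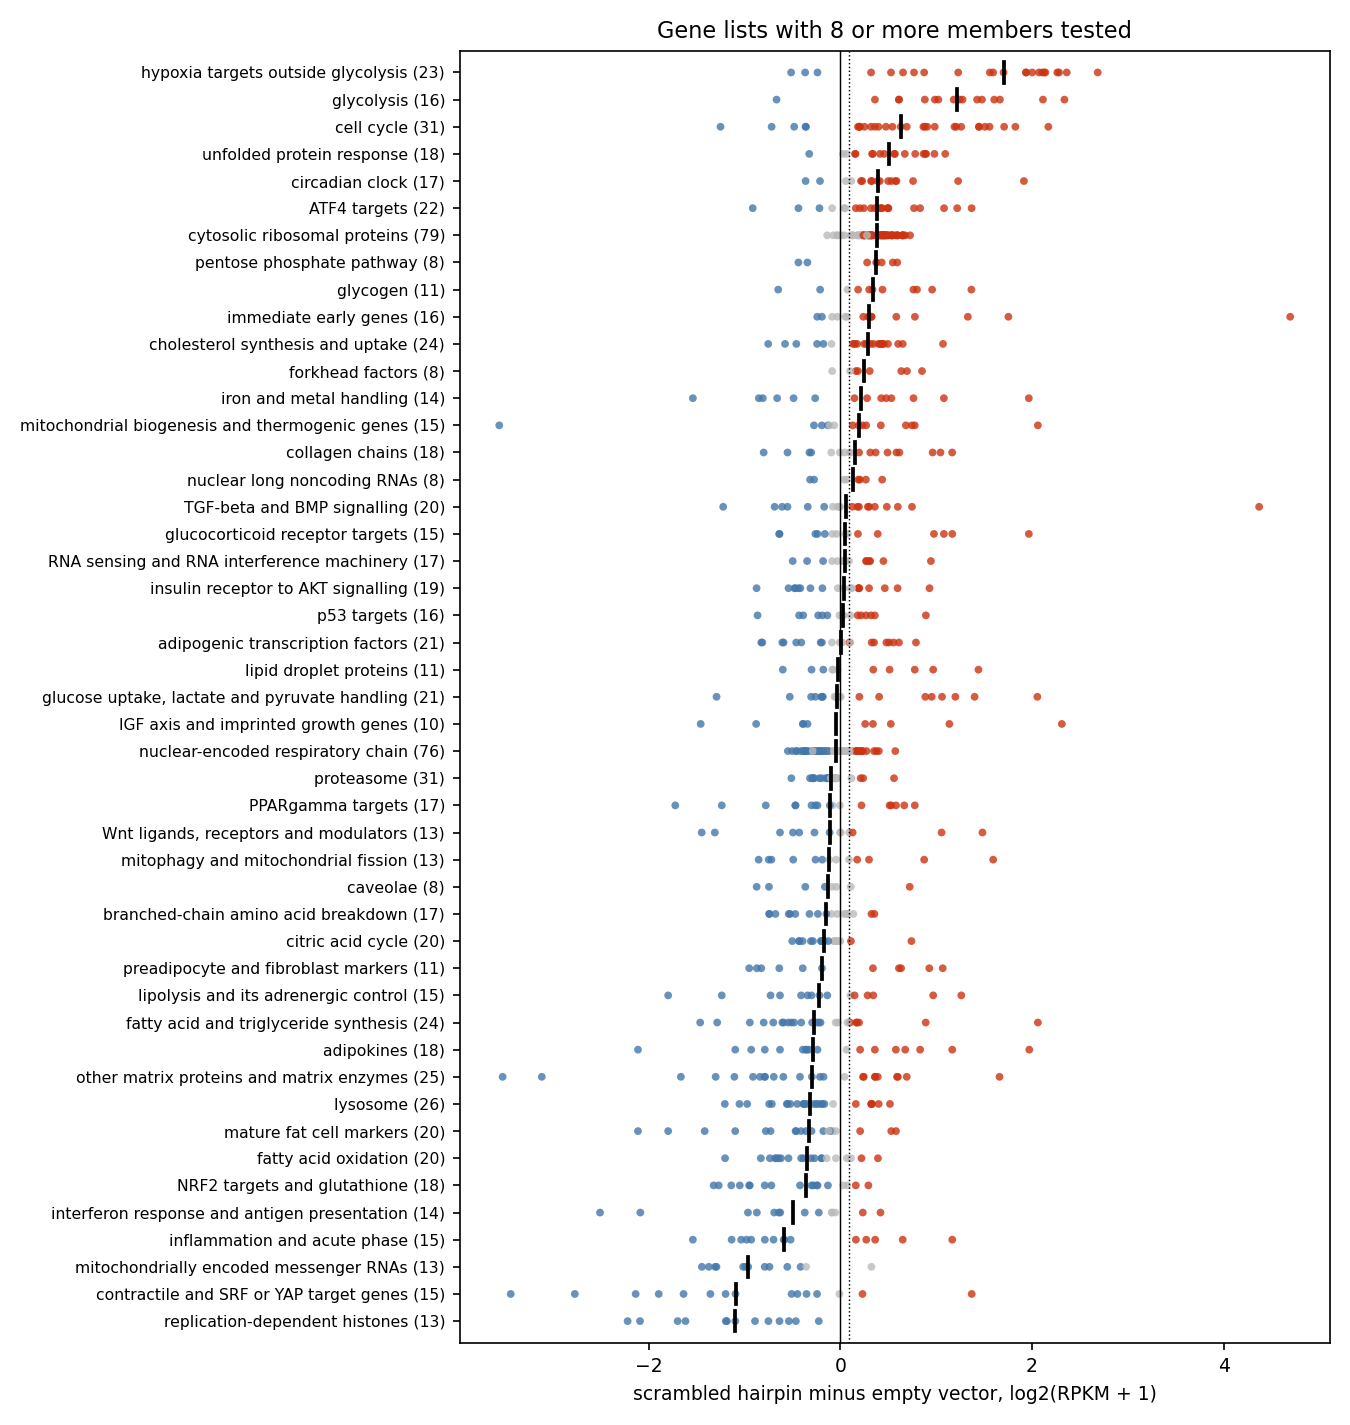
Differences of single genes (x axis, log2(RPKM + 1), scrambled hairpin minus empty vector) for each list with 8 or more members tested, whose number is in parentheses. Points are genes, red where higher and blue where lower by the test and grey where not passed; black bars are list medians, the solid line is 0 and the dotted line the median of all genes. Medians run from 1.70 for hypoxia targets to -1.10 for replication-dependent histones.

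The study also held cultures in which Foxp1 was changed, and these give a comparison that shares no library with the controls. In the cultures with the hairpin against Foxp1, set against those overexpressing Foxp1, 7681 of 11245 genes passed the test (68.3%), 4045 higher (36.0%) and 3636 lower (32.3%). Of the 5037 genes higher between the controls, 2837 were also higher there (56.3% of them, and 70.1% of all higher there) and 751 lower. Of the 3033 genes lower between the controls, 1883 were also lower (62.1%, and 51.8% of all lower there) and 454 higher. Across all 11245 genes, which are not independent replicates, Pearson's r of the 2 differences was 0.51. Among genes that differed between the controls by a ratio of at least 2, 515 of 677 that were higher were higher in the other pair and 65 lower, and 345 of 483 that were lower were lower and 66 higher. The difference between the controls and that of the other pair were themselves unequal for 6173 genes (54.9%) by the interaction test of limma.

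Gene by gene, some differences were shared by both pairs and others were not. Fosl1 differed by 4.69 between the controls and 4.25 between the Foxp1-changed groups, and Ero1l by 2.36 and 2.48, where the interaction did not pass (limma adjusted p = 0.299). Egln3 (2.69 and 1.02), Pgk1 (2.11 and 0.93) and Slc2a1 (2.06 and 1.195) were higher in both pairs and more so between the controls, with the interaction passing for each (limma adjusted p at most 5.13e-07). In the other pair 18 of 23 hypoxia targets were higher (median 0.79) and so were 11 of 16 glycolytic enzymes (median 0.48), while 5 of the latter, Aldoa, Hk2, Pfkm, Pfkp and Eno3, were lower. Acta1 (-2.77 and -3.92) and Acta2 (-3.44 and -1.93) were lower in both, with 10 of 15 contractile genes lower there, as were 12 of 13 mitochondrial messages and 11 of 13 histone genes. Cell cycle genes were higher there in 24 of 31, and ribosomal protein genes in 52 of 79. Of the mature fat cell markers, 12 of 20 were higher and 6 lower between the Foxp1-changed groups (median 0.23). Adipoq was at 438 ± 16.6 RPKM with overexpression and 1416 ± 64.1 with the hairpin against Foxp1, a log2 difference of 1.69 beside -1.098 between the controls, and the interaction passed (-2.79, limma adjusted p = 2.53e-11). NRF2 targets (11 higher and 3 lower of 18) and proteasome subunits (22 of 31 higher) also had more members higher than lower in that pair. Foxp1 itself differed there, and its part in these values was not tested.

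**Figure D5:**
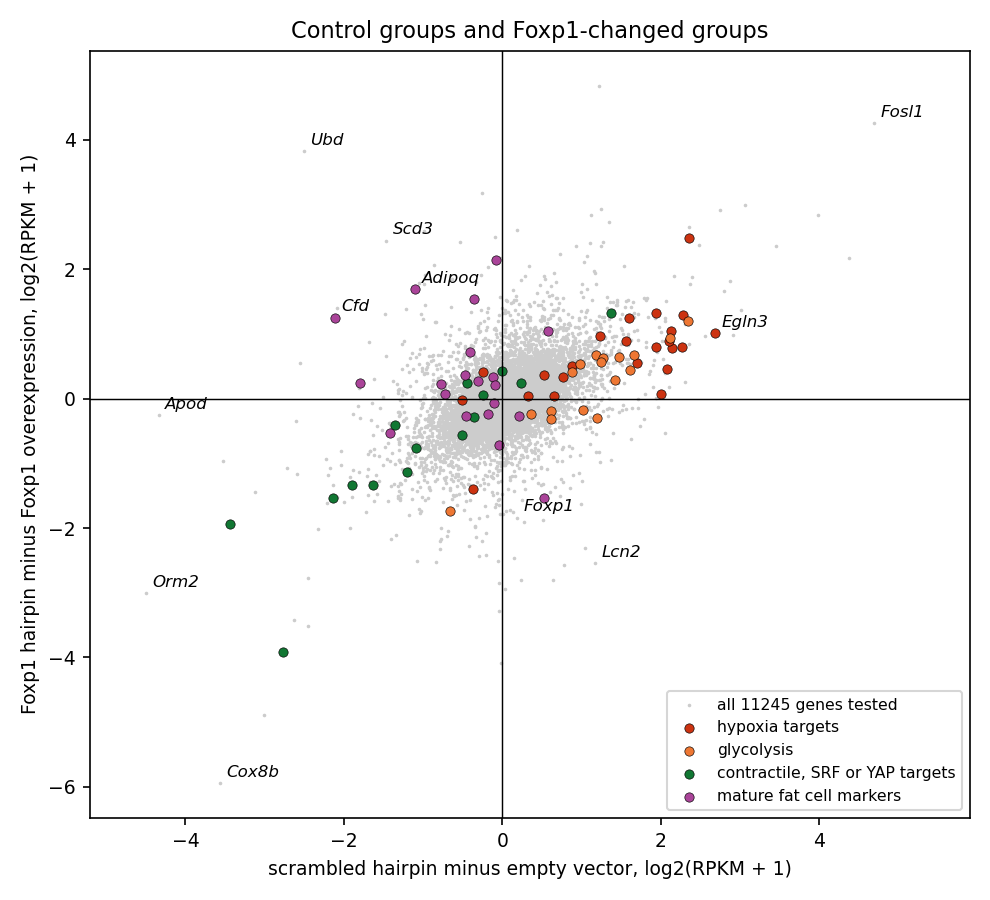
Scrambled hairpin minus empty vector (x axis) against Foxp1 hairpin minus Foxp1 overexpression (y axis), both in log2(RPKM + 1), for all genes tested and 4 coloured lists. Hypoxia and glycolytic genes lie mostly to the upper right, contractile genes mostly to the lower left, and several fat cell markers, Adipoq and Cfd among them, to the upper left.

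The spread among replicates set a limit on small differences. Squared differences between libraries of a group were 2.73 to 8.03 times those of read sampling. In data simulated with known changes the test called 18 of 50 genes changed by 1.2-fold, 45 of 49 by 1.5-fold and all 50 by 2-fold. Those data left 10722 of 10921 genes unchanged, whereas 71.8% of genes tested passed between the controls. The Benjamini-Hochberg adjustment is stricter where few genes change, so these counts can understate recovery between the controls. Recovery with as many changed genes as between the controls was not tested. A small difference that did not pass is still not shown to be absent.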

How the data were processed

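The series holds RNA-seq of 4 groups of 3T3-L1 adipocytes with 3 libraries each, of which the 6 control libraries are described here. The authors deposited a matrix of RPKM per gene and library, whose numbers are RPKM divided by 1000, as their sums and the value of a single read show; they were multiplied by 1000 here. Per the submitters' processing notes, HISAT2 2.1.0 and featureCounts of Subread 1.5.3 were used with build mm10; their settings, including strand and reads that match several places, are not given in the sources used here. Gene symbols and exon lengths came from GENCODE M21 for 28896 of 28948 identifiers, and promoters from RefSeq on GRCm38.p6.

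Reads were recovered from RPKM and exon length: 98.8% to 98.9% of values above 0 came out whole to within 0.05, and the reads served for depth and for voom only. The filter kept genes reaching 1 RPKM in 3 or more libraries. Their log2(RPKM + 1) was fitted by limma (version 3.58.1, under R 4.3.3) in a single model of 4 groups with a variance trend, with Benjamini-Hochberg adjusted p under 0.05. Tables and figures used Python 3.11.15, pandas 2.3.3, numpy 2.4.6 and matplotlib 3.10.9.

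The groups, the 53 gene lists and the tests were chosen with earlier results of these data known. Genes were named as forkhead members, as up to 4 of the largest differences per list and up to 2 of the direction with fewer, as the 12 largest differences each way among genes with a mean of at least 5 RPKM and no overlap, and as the highest-level genes of the fat cell, glycolysis and hypoxia lists; not every gene so picked is printed, results of 4 genes are not reported here, and further list members were named after their values were seen. On simulated data (10921 genes), 18 of 50 genes changed by 1.2-fold, 45 of 49 by 1.5-fold, 50 of 50 by 2-fold and 50 of 50 by 4-fold passed, as did 5 of 10722 left unchanged. Alternatives were another pseudocount, other filters, 4 scalings, only the 6 libraries, 2 variance models, 3 thresholds, a replicate block and leaving out each library.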

Additional observations from a re-analysis of the deposited data

Results flagged for a closer look

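The genes below are those among the named genes, not all 751 and 454 genes called in opposite directions in the 2 pairs. They differed one way between the controls and the opposite way between the hairpin against Foxp1 and Foxp1 overexpression, both differences and their difference (the first minus the second, on the log2 scale) passing the test of limma. Its adjusted p was at most 0.000407 for each gene except Malat1 (0.00744). No explanation was tested, and Foxp1 itself was changed by design in the second pair.

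Among these named genes the widest gap was that of Ubd. This ubiquitin-like gene differed by -2.51 between the controls and 3.83 in the other pair, a gap of -6.34. Gbp2 had a gap of -3.48, and the iron-binding adipokine Lcn2 one of 3.71 in the opposite sense.

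Fat cell genes that were lower between the controls and higher in the other pair were Cfd (gap -3.37), Adipoq (-2.79), Aqp7 (-2.13), Adrb3 (-2.04), Retn (-1.900), Scd3 (-3.904), Scd1 (-1.495), Lipe (-1.14), Cd36 (-1.003), Lpl (-0.83), Angptl4 (-0.65) and Plin1 (-0.57). Others went the opposite way: Cidea (3.35), Pck1 (2.06), Cox7a1 (1.99), G0s2 (1.34), Cebpb (1.22) and Agt (0.47).

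Genes of sugar use that were higher between the controls and lower in the other pair were the glycogen regulator Ppp1r3b (2.32), Tkt (1.32), Hk2 (1.197), Pfkp (0.93), Aldoa (0.796) and Pfkm (0.604), whereas Pgd (-0.98) went the other way. The forkhead genes Foxp1 (2.02), Foxo6 (1.73) and Foxo1 (1.65) were on the former side, with the metallothioneins Mt2 (2.09) and Mt1 (1.25), the glucocorticoid target Fkbp5 (1.85), Npc2 (0.96), the RNA-binding Prkra (0.68) and the CDK inhibitor Cdkn1b (0.36).

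Lower between the controls and higher in the other pair were also the antioxidant genes Gstm1 (-1.73) and Cat (-1.73), the sterol enzyme Tm7sf2 (-1.19), S100a4 (-1.54), the stress pseudokinase Trib3 (-0.75), Malat1 (-0.68), Ppargc1a (-0.49), the proteasome subunit Psmd7 (-0.47) and cyclin D2 (Ccnd2, -0.47). The control differences of Scd1, Malat1, Angptl4 and Foxp1 each lost their call with at least 1 other setting.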

How the results depend on the processing

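Between the controls, 8070 genes passed the test, 5037 higher and 3033 lower. A ratio of at least 1.5 left 2820 genes (1676 higher and 1144 lower) and a ratio of at least 2 left 1160 (677 and 483), since each adds a condition. A minimum of 5 RPKM left 7181 genes to test and 2013 lower. With the other settings the counts stayed within 1.5 times. Leaving out each library gave 7542 to 7632 genes passed, 4714 to 4795 higher and 2769 to 2886 lower. Across the settings, 266 of 284 named genes kept their direction and their side of the threshold, and mt-Co1 became 0 with quantile normalization, which sets the top-ranked gene to 1 level by its construction. Labels give both groups the same replicate numbers. Deviations of same-numbered libraries correlated at -0.05, 0.06 and 0.04, and those of differently numbered ones at -0.13 to 0.09. With so few libraries this cannot tell whether same-numbered cultures were handled together. With a replicate block 8164 genes passed, 5098 higher and 3066 lower. A fit on only the 6 control libraries, without the spread of the other 6, passed 8577 genes, 5315 higher and 3262 lower. Depth limits low genes: a single read over 1 kilobase stood for 0.0260 to 0.0284 RPKM.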
